A study of Mus musculus with 22 samples.

Results

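Epithelial to mesenchymal transition genes are described here by their transcript levels in mouse E14 embryonic stem cells exposed to 10 chromatin compounds. The genes were taken by name from a standard list of 10 (Cdh1, Cdh2, Epcam, Vim, Fn1, Snai1, Snai2, Twist1, Zeb1 and Zeb2). The deposited table held a row for 9 of them among 18487 genes, and Snai2 was not analysed here. All 9 passed the filter on low values, a normalized read count of at least 10 in at least 2 libraries, which left 17275 genes to test.

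The series holds 22 RNA-seq libraries in 11 groups, 2 for NC and 2 for each of Bromosporine, CPTH2, Chaetocin, DZNep, Garcinol, IOX1, MS023, OICR, UNC0379 and Valproate. E14 is a laboratory line of mouse embryonic stem cells, all groups share it, and the labels name no engineered allele in any of them. NC is the only group without a compound name and was used as the reference. The labels give neither dose nor exposure time, and do not say whether the 2 libraries of a group came from separate cultures, so p-values measure the spread between libraries, which may be technical. Bromosporine blocks acetyl-lysine reading by bromodomains. Histone deacetylases are inhibited by Valproate, and histone acetyltransferases by CPTH2 and by Garcinol. Chaetocin and UNC0379 inhibit lysine methyltransferases, MS023 inhibits arginine methyltransferases of type I, IOX1 inhibits oxygenases that use 2-oxoglutarate, and DZNep interferes with methylation by causing S-adenosylhomocysteine to accumulate. OICR is given as the label has it.

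In the transition, epithelial cells lose the junctions that hold them in a sheet and become migratory mesenchymal cells, as at gastrulation and in wound healing. Transcription factors of the SNAIL, TWIST and ZEB families repress epithelial genes such as Cdh1, while mesenchymal genes such as Vim, Cdh2 and Fn1 are raised. Mouse embryonic stem cells grow as compact colonies joined by E-cadherin, yet they also transcribe several mesenchymal genes. SNAIL and ZEB proteins bind the E-box, whose core is CACCTG on one strand and CAGGTG on the other.

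The 250 bases upstream of the annotated start are shown for Snai1 and Epcam, the 2 genes of the set in whose available promoter windows this E-box was found. Capitals mark the motif, searched on both strands. The RefSeq promoter table (GRCm38.p6) matched 5 of the 9 genes, Epcam, Vim, Snai1, Twist1 and Zeb2, and had no entry for Cdh1, Cdh2, Fn1 and Zeb1. The Snai1 window is chr2:167537945-167538194 and the Epcam window chr17:87635729-87635978, both on the plus strand.
Snai1: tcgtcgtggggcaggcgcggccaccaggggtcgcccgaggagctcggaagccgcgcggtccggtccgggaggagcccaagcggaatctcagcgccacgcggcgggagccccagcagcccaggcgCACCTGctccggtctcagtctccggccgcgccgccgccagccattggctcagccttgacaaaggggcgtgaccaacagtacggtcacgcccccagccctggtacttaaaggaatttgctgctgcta
Epcam: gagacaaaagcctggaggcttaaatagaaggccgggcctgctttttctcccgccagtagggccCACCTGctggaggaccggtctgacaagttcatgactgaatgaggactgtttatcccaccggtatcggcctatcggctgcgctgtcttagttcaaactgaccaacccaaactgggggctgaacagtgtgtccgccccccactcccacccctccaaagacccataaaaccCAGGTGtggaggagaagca
The Snai1 window held the motif 1 time, 126 bases before the start. The Epcam window held it 2 times, 187 and 19 bases before the start. Vim, Twist1 and Zeb2 had no match in these windows. Among 32851 promoter windows of 250 bases, 17.2% held the motif and 2.06% held it at least 2 times, so a match is common, and it is a description of the letters and not of binding.

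Against NC, 3 of the 9 genes changed with DZNep, 1 changed with Valproate, and 0 were called with the other 8 compounds. With DZNep, Snai1, the gene of the transcription factor Snail, rose 12.5-fold. Vim, which encodes the intermediate filament protein vimentin, was 2.28-fold lower with DZNep and 2.32-fold lower with Valproate. Fn1, the gene of fibronectin, was 2.40-fold lower with DZNep, with a limit on its scale given with its values. Cdh1 passed the test with no compound. Calls needed an adjusted p under 0.05 (Benjamini-Hochberg, limma on log2(value + 1) over all 22 libraries) together with a fold change over 2, and log2 changes are on that scale. With 4 of the 8 compounds without a call some genes of the set reached an unadjusted p under 0.05, 4 of 9 with MS023 and 1 each with Bromosporine, Garcinol and IOX1, beside 15.0%, 19.0%, 3.62% and 12.4% of all tested genes. All 10 comparisons share the 2 NC libraries.

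The share of all tested genes called is the background for these counts. It was 11.4% with DZNep, 5.28% with Valproate, 3.34% with Bromosporine, 0.973% with MS023, 0.388% with OICR and 0.116% with IOX1. With Chaetocin it was 0.0174%, with CPTH2 and Garcinol 0.00579% each, and with UNC0379 0%, where 1051 genes had an unadjusted p under 0.05 in limma. By direction, DZNep raised 5.27% and lowered 6.14% of the genes, Valproate 2.73% and 2.55%, Bromosporine 0.573% and 2.77%, and MS023 0.388% and 0.585%. The 1 of 9 with Valproate is close to its background of 5.28%. The 3 of 9 with DZNep is a higher share than 11.4% but rests on few genes, among them Fn1 with its limited scale. The set was chosen with earlier results of these data known, so these shares are a description and not a test. The median log2 change of the 9 genes was -0.17 with DZNep and -0.33 with Valproate, against -0.04 and -0.02 over all tested genes.

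**Figure D1:**
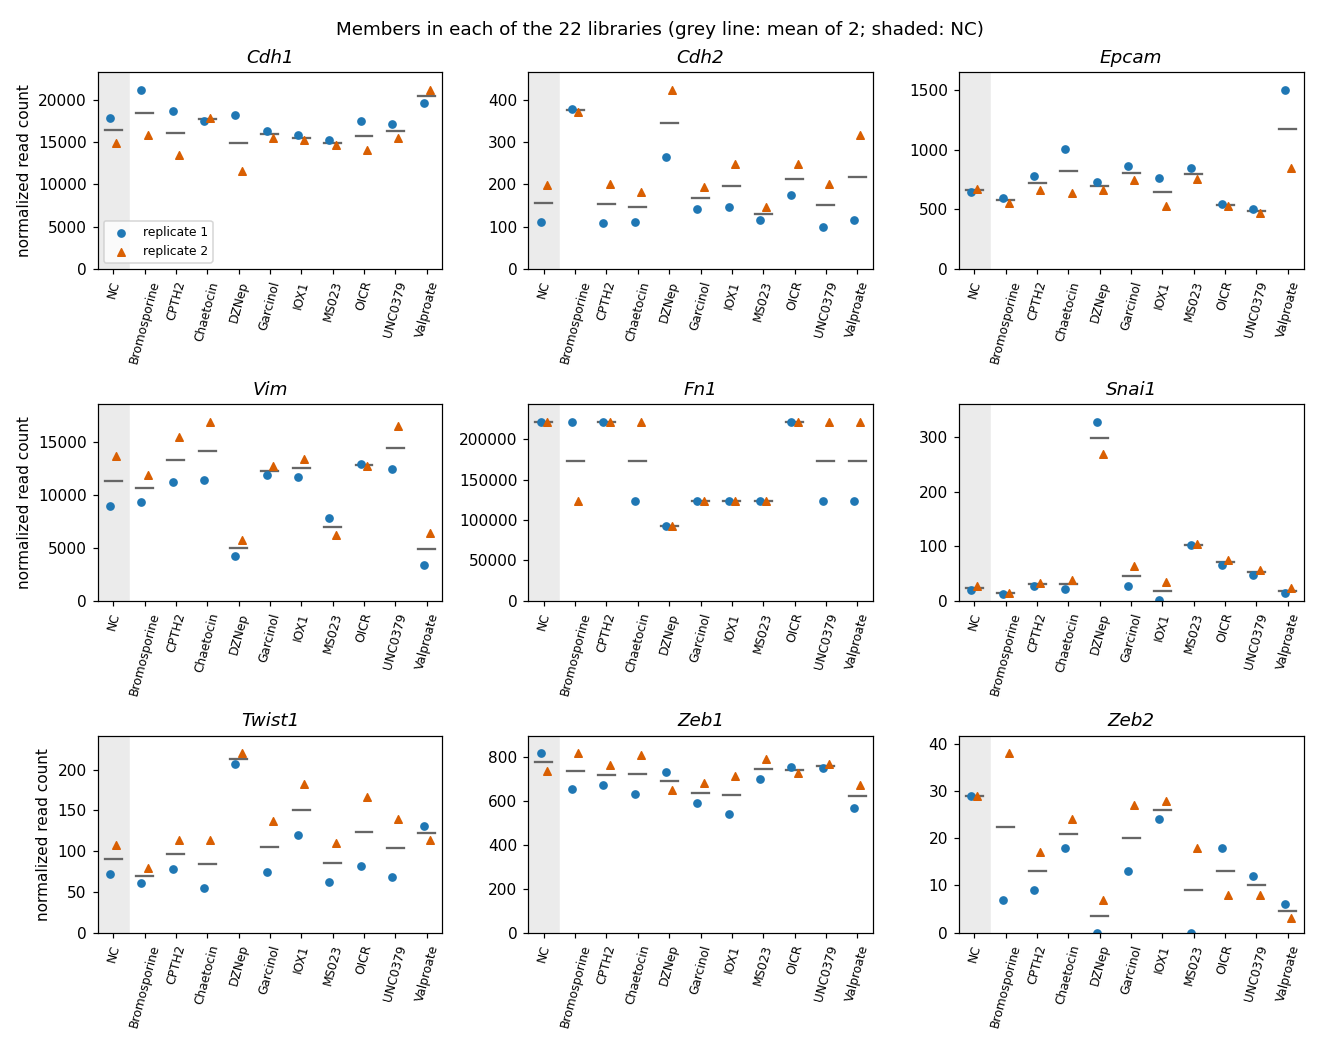
Normalized read counts of the 9 genes (y axis, linear, 1 panel a gene) in the 11 groups (x axis), with circles for replicate 1, triangles for replicate 2 and a grey line for the mean of the 2. Both DZNep libraries lie above all others for Snai1 (329 and 269), and the DZNep libraries lie below both NC libraries for Vim (4178 and 5732 against 8931 and 13630).

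Over all 11 groups together, 2 of the 9 genes varied in limma's F test, Vim (adjusted p = 0.00463) and Snai1 (adjusted p = 0.0105), beside 29.7% of all tested genes. Epcam (adjusted p = 0.0614) and Fn1 (adjusted p = 0.0874) did not pass. For Cdh2, Twist1, Zeb2, Zeb1 and Cdh1 the adjusted p lay between 0.228 and 0.636.

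**Figure D2:**
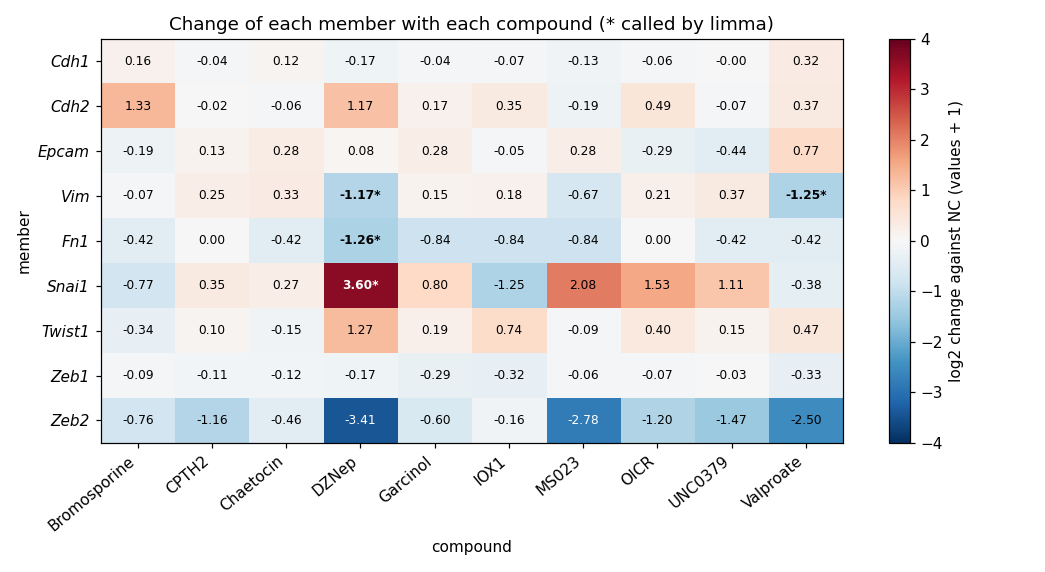
Log2 change against NC of each gene (rows) with each compound (columns), in colour from -4 to 4 and as a number, with an asterisk on those called by limma. The asterisks are on Vim, Fn1 and Snai1 with DZNep and on Vim with Valproate.

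Cdh1 encodes E-cadherin, the adhesion protein of adherens junctions, whose loss is the usual mark of the transition. It lies on chromosome 8 (106603351 to 106670246, plus strand, mm10). Its normalized read count was 17912 and 14933 in NC, 18252 and 11619 with DZNep, and 19688 and 21208 with Valproate. The DZNep libraries enclose both NC libraries, while both Valproate libraries are above them. The log2 change was -0.17 with DZNep (95% interval -0.61 to 0.28, limma adjusted p = 0.600) and 0.32 with Valproate (95% interval -0.12 to 0.77, adjusted p = 0.365). Over the 22 libraries the values ran from 11619 to 21208 with a median of 16056. In order of the group means Valproate came first (20448) and DZNep last (14935.5), and every group overlapped or touched its neighbour in that order. With the other 8 compounds the log2 change lay between -0.13 (MS023) and 0.16 (Bromosporine), with an SE of 0.207. A lower level of E-cadherin transcript was therefore not shown with any compound, and the interval for DZNep leaves out a 2-fold fall.

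Epcam encodes an adhesion glycoprotein of epithelia and of embryonic stem cells, and its gene is on chromosome 17 (87635979 to 87651129, plus strand). Normalized read counts were 643 and 674 in NC, and 1503 and 844 with Valproate. Both Valproate libraries are above both NC libraries, and they lie further apart than the 2 libraries of any other group. The log2 change was 0.77 (SE 0.255, adjusted p = 0.0730 by limma) and was not called. The size rests on the Valproate libraries, since it was 0.36 without replicate 1 (adjusted p = 0.509) and 1.19, and called, without replicate 2 (adjusted p = 0.0146). The lowest levels were with UNC0379 (502 and 471) and OICR (548 and 526), both below NC without overlap, at log2 changes of -0.44 and -0.29 that did not pass (adjusted p = 0.873 and 0.801). With DZNep the values were 727 and 663, which overlap NC. So neither of the 2 epithelial genes of the set was lower with DZNep by the test, the compound with which Snai1 rose.

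Vim was called with 2 compounds, in the same direction. The gene spans 13573927 to 13582826 of chromosome 2, on the plus strand, and no exon of another annotated gene overlaps it. Normalized read counts were 8931 and 13630 in NC, 4178 and 5732 with DZNep, and 3403 and 6340 with Valproate. All 4 libraries with these compounds are below both NC libraries. The log2 change was -1.17 with DZNep (SE 0.304, 95% interval -1.83 to -0.52, limma adjusted p = 0.0129) and -1.25 with Valproate (95% interval -1.90 to -0.59, adjusted p = 0.0187). Within libraries of the same replicate number the change was -1.10 and -1.25 with DZNep and -1.39 and -1.10 with Valproate.

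The call on Vim rests on few libraries. With DZNep it was lost without DZNep replicate 1 (log2 change -0.94, adjusted p = 0.0970) and without NC replicate 2 (-0.87, adjusted p = 0.113). With Valproate it was lost without Valproate replicate 1 (-0.80, adjusted p = 0.194) and without NC replicate 2 (-0.94, adjusted p = 0.163). The direction was the same in each of these fits. MS023 gave the next lowest values, 7820 and 6151, which do not overlap NC, but the log2 change of -0.67 was not called (adjusted p = 0.321). In the other 7 groups with a compound Vim lay between 9300 and 16878, overlapping NC in every case, with log2 changes from -0.07 (Bromosporine) to 0.37 (UNC0379).

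DZNep and Valproate were also compared directly in the same fit, a comparison chosen after the values had been seen, in which 10.8% of all tested genes were called. Of the 9 genes, 1 was called. Snai1 was higher with DZNep, at a log2 difference of 3.98 (SE 0.795, adjusted p = 0.00307 by limma). For Vim the difference of DZNep minus Valproate was 0.08 with a 95% interval of -0.58 to 0.73 (adjusted p = 0.929), so the fall in vimentin transcript was not shown to differ in size between these compounds. Epcam (-0.70, adjusted p = 0.0650), Fn1 (-0.84, adjusted p = 0.0918) and Cdh1 (-0.49, adjusted p = 0.109) were lower with DZNep than with Valproate without passing. With the replicate number as a block, limma adjusted p was 0.00984 for Epcam, 0.0248 for Cdh1, 0.0247 for Cdh2 and 0.0367 for Twist1. None of these was called, since the differences stayed under 2-fold.

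Cdh2 encodes N-cadherin, the cadherin of mesenchymal and neural cells, which replaces E-cadherin in many transitions. The gene is on the minus strand of chromosome 18 (16588877 to 16809246). Its counts were 111 and 199 in NC, 379 and 371 with Bromosporine, and 266 and 424 with DZNep. Libraries of both compounds are above both NC libraries. The log2 changes were 1.33 with Bromosporine (SE 0.512, limma adjusted p = 0.163) and 1.17 with DZNep (adjusted p = 0.118), and neither was called. With the replicate number as a block in the limma fit, both were called (adjusted p = 0.00416 and 0.00288). With Valproate the values of 117 and 316 spread across those of NC. In 10 of the 11 groups replicate 2 was higher than replicate 1, and only Bromosporine had the other order.

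Fibronectin, the product of Fn1, is a matrix glycoprotein that mesenchymal cells deposit and move on. The gene is on chromosome 1 (71585520 to 71653200, minus strand), and an exon of Apol7d on the other strand overlaps it. Fn1 took only 3 values in the whole table, 221616 in 10 libraries, 123583 in 10 and 92487 in the 2 DZNep libraries. In NC both libraries were at 221616, so DZNep was lower without overlap, and the log2 change was -1.26 (SE 0.338, adjusted p = 0.0154 in limma). Garcinol, IOX1 and MS023 had 123583 in both libraries, a log2 change of -0.84 that was not called (adjusted p from 0.252 to 0.967). The SD of Fn1 was 0 in both NC and DZNep, and the spread in its test comes from the other groups and the trend over genes.

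The scale of Fn1 limits what its change means. The value 221616 is the largest of every library and was shared by exactly 10 genes in each. In each of the 22 libraries exactly 1 of the 3 genes Fn1, Rpl4 and Ybx1 held it. Rpl4 encodes a protein of the large ribosomal subunit, and Ybx1 a nucleic acid binding protein that packages messenger RNA. Both NC libraries had Fn1 at 221616, Rpl4 at 123583 and Ybx1 at 92487. In the first DZNep library Rpl4 was at 221616 and Ybx1 at 123583, in the second the reverse, and Fn1 was at 92487 in both. The fall of Fn1 is thus a change of place against these genes, in steps set by the normalization, and its size of 2.40-fold is the size of the steps. The call was lost under 7 of 11 alternative settings, among them leaving out either NC library or either DZNep library (adjusted p from 0.0521 to 0.0815).

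Among the transcription factors, Snai1 was the only gene of the set called with a compound. It encodes Snail, which represses Cdh1 and is needed for mesoderm formation at gastrulation, and lies on chromosome 2 (167538195 to 167542814, plus strand), directly after the promoter window printed above. Counts were 20 and 28 in NC and 329 and 269 with DZNep. The lower DZNep library is above every library of the other 10 groups. The log2 change was 3.60 (SE 0.795, 95% interval 1.88 to 5.31, limma adjusted p = 0.00527), and 3.97 and 3.22 within the replicate numbers 1 and 2. Under leave-one-out and the other alternatives the log2 change was 3.19 to 3.83, with adjusted p from 0.000378 to 0.0639, and the call was lost only where the fit was made on the DZNep and NC libraries alone.

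Below DZNep, Snai1 followed an order in which the first groups were separate. MS023 came next with 102 and 104, then OICR with 66 and 75, and then UNC0379 with 48 and 57. These 3 groups do not overlap each other or NC, but their log2 changes of 2.08, 1.53 and 1.11 were not called (limma adjusted p = 0.225, 0.544 and 0.906). From UNC0379 downward every group overlapped or touched the next in order, and Bromosporine was the lowest with 13 and 14. With IOX1 the libraries were at 2 and 35, and the log2 change of -1.25 hangs on that pair. It was -3.04 and called without IOX1 replicate 2 (adjusted p = 0.0288) and 0.54 without IOX1 replicate 1 (adjusted p = 0.885).

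Twist1, a basic helix-loop-helix factor of mesoderm and neural crest, is on chromosome 12 (33957671 to 33959829, plus strand). NC had 72 and 108 normalized read counts, and DZNep had 207 and 220. The DZNep libraries are the highest of the 22 and overlap no other group. The log2 change of 1.27 (SE 0.484, adjusted p = 0.0757) nevertheless missed the limma call. Against the mean of the other 10 groups in place of NC it was 1.12 and was called (adjusted p = 0.0277). With the replicate number as a block, Twist1 with DZNep was called against NC (limma adjusted p = 0.00298). In the other groups Twist1 lay between 55 and 182, with IOX1 next in order (120 and 182, log2 change 0.74, adjusted p = 0.566).

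Zeb1 and Zeb2 encode zinc finger and homeodomain repressors of epithelial genes, and neither was called with any compound. Zeb1 (chromosome 18, 5591860 to 5775467, plus strand) ran from 540 to 818 over all libraries, with 818 and 740 in NC, and an exon of Gm10125 on the other strand overlaps it. Its log2 change lay between -0.33 (Valproate) and -0.03 (UNC0379), below 0 with each compound and called with none. With DZNep, Garcinol, IOX1 and Valproate both libraries were below both NC libraries, with adjusted p from 0.260 to 0.967.

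Zeb2 (chromosome 2, 44983632 to 45117395, minus strand) ran from 0 to 38 over all libraries. Exons of the antisense transcript Zeb2os and of Gm27761 on the other strand and of Mir5129 on the same strand overlap it. NC had the highest group mean of Zeb2, with 29 and 29. The gene was at 0 and 7 with DZNep, 6 and 3 with Valproate, and 0 and 18 with MS023. All 3 groups are below NC, with log2 changes of -3.41, -2.50 and -2.78 that were not called (limma adjusted p = 0.0573, 0.230 and 0.295). The libraries of CPTH2, Chaetocin, Garcinol, IOX1, OICR and UNC0379 were also all below both NC libraries. Their log2 changes ran from -1.47 (UNC0379) to -0.16 (IOX1), and none was called. Only Bromosporine, with 7 and 38, overlapped NC. With DZNep the change was -1.91 without DZNep replicate 1 (adjusted p = 0.362) and -4.91, and called, without replicate 2 (adjusted p = 0.0227), and it was also called with a pseudocount of 10 (-1.58, adjusted p = 0.0417). With MS023 it was -0.66 without MS023 replicate 1 and -4.91 without replicate 2, and called in neither fit. A fit with the replicate number as a block also called Zeb2 with DZNep (limma adjusted p = 0.0233). At such counts the size of the change depends on the pseudocount, and whether a listed 0 is a failed estimate of the counting was not tested. Postn, a matrix gene outside the set, had counts of 474 and 559 in NC, and of 658 and 0 in the 2 Valproate libraries.

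The libraries of the 2 replicate numbers differ in this series, and the genes of the set take part. Replicate 2 was compared with replicate 1 over the 11 groups, after seeing the data, and 52.6% of all tested genes had an adjusted p under 0.05 in limma. Of the 9 genes, 5 did, a share near that background. Cdh2 was higher in replicate 2 by a log2 difference of 0.69 (adjusted p = 0.000257), Twist1 by 0.61 (adjusted p = 0.000889) and Vim by 0.33 (adjusted p = 0.00922), in 10, 10 and 9 of 11 groups. Cdh1 was lower by 0.21 in 9 of 11 groups and Epcam lower by 0.27 in 10 of 11.

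Snai1 was higher in 10 of 11 groups by 0.66 without passing (adjusted p = 0.0744), and Zeb1, Zeb2 and Fn1 had adjusted p of 0.0602, 0.134 and 0.378. The labels do not say what the replicate number marks. Each group holds 1 library of each number, so group means contain both. The main fit leaves the difference between the numbers in its spread. With the number as a block in the fit, the SE of Cdh2 was 0.255 in place of 0.512.

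**Figure D3:**
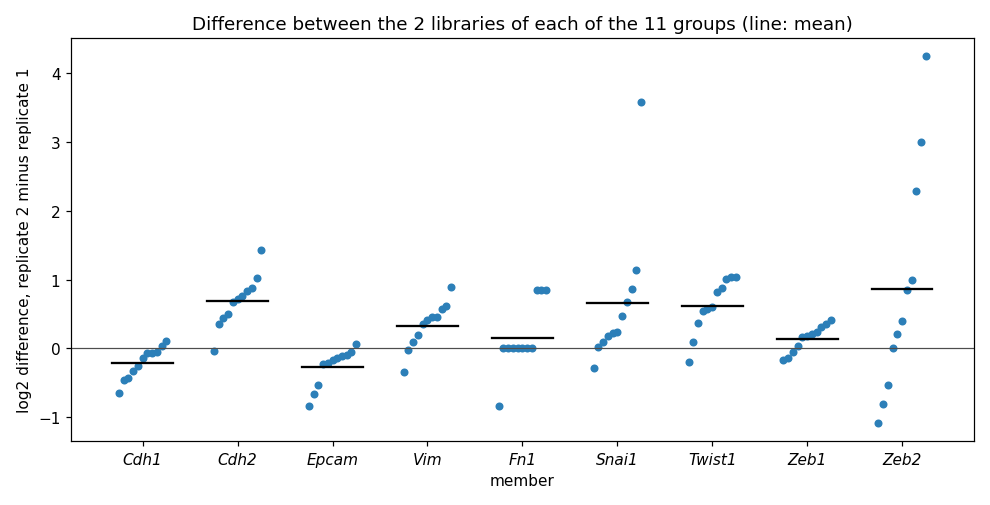
Log2 difference of replicate 2 minus replicate 1 (y axis) for each gene (x axis), with 1 point for each of the 11 groups and a line for their mean. The means are 0.69 for Cdh2, 0.61 for Twist1 and 0.33 for Vim, and below 0 for Cdh1 and Epcam.

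Other genes of epithelial cells moved in both directions. From a list of 40, all were in the table and 38 were tested. With DZNep 5 rose and 3 fell, with Valproate 3 rose and 0 fell, with Bromosporine 1 rose, and with MS023 1 fell. Of all tested genes, 11.4% were called with DZNep, 5.28% with Valproate, 3.34% with Bromosporine and 0.973% with MS023. The median log2 change of the list was -0.06 with DZNep and 0.28 with Valproate.

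Grhl2, a transcription factor that maintains epithelial junctions, rose with both of these compounds. It went from 250 and 202 in NC to 893 and 540 with DZNep (log2 change 1.62, limma adjusted p = 0.0118) and to 1655 and 651 with Valproate (2.20, adjusted p = 0.00470). With DZNep the keratin gene Krt19 (6 and 9 to 320 and 85, log2 change 4.31, adjusted p = 0.00219) and the desmosomal gene Pkp2 (779 and 1028 to 4387 and 6785, 2.61, adjusted p = 0.00114) rose as well. Marveld3, a tight junction gene, rose with Valproate from 19 and 16 to 130 and 73 (2.42, adjusted p = 0.0409). None of these groups overlap NC.

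The epithelial genes that fell also belong to junctions. Cldn3, a claudin of tight junctions, fell from 719 and 589 in NC to 204 and 341 with DZNep (log2 change -1.30, limma adjusted p = 0.000490) and to 245 and 229 with MS023 (-1.45, adjusted p = 0.00503). The desmosomal genes Dsp (3544 and 2086 to 1005 and 967, -1.46) and Dsg2 (3822 and 2363 to 1572 and 1040, -1.23) fell with DZNep at adjusted p of 0.00206 and 0.00154. Desmosomal genes thus went both ways with DZNep, since Pkp2 rose.

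Of 40 other mesenchymal genes, 36 were tested. With DZNep 6 rose and 3 fell, with Valproate 4 rose and 2 fell, and with Bromosporine 0 rose and 4 fell. By direction, DZNep raised 5.27% and lowered 6.14% of all tested genes, Valproate 2.73% and 2.55%, and Bromosporine 0.573% and 2.77%. With MS023 1 rose and with OICR 1 fell, beside 0.973% and 0.388% of all tested genes called. The median log2 change was 0.34 with DZNep, 0.23 with Valproate and -0.61 with Bromosporine, against 0.01 over all tested genes with Bromosporine.

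Thy1, a surface glycoprotein of fibroblasts and neurons, had counts of 12 and 11 in NC, of 66 and 64 with DZNep (log2 change 2.40, limma adjusted p = 0.00115) and of 358 and 303 with Valproate (4.73, adjusted p = 3.01e-05). S100a6, a calcium-binding protein gene, rose from 46 and 49 to 726 and 528 with DZNep (3.68) and to 297 and 267 with Valproate (2.54). Mmp2, a gelatinase gene, rose from 151 and 132 to 454 and 410 with DZNep (1.60) and to 1267 and 929 with Valproate (2.93). These 3 genes rose with both compounds, while 27 of the 36 tested genes with DZNep and 30 with Valproate were not called. Lum, a proteoglycan gene, was called with Valproate, where its counts were 197 and 331, while each NC library was listed at 0.

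Mmp14, a membrane protease gene, fell with 4 compounds. It was at 352 and 347 in NC, at 94 and 87 with Bromosporine, 63 and 78 with DZNep, 124 and 102 with OICR, and 31 and 44 with Valproate. The log2 changes were -1.94, -2.30, -1.63 and -3.21. Tgfbi, a matrix gene induced by TGF-beta, was at 813 and 296 in NC and fell to 84 and 52 with Bromosporine, 48 and 29 with DZNep, and 63 and 16 with Valproate, all clear of NC. Col1a1, a collagen gene, fell with Bromosporine from 24 and 24 to 7 and 6 (-1.74, limma adjusted p = 0.00931) and rose with DZNep to 327 and 228 (3.45, adjusted p = 1.79e-05).

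**Figure D4:**
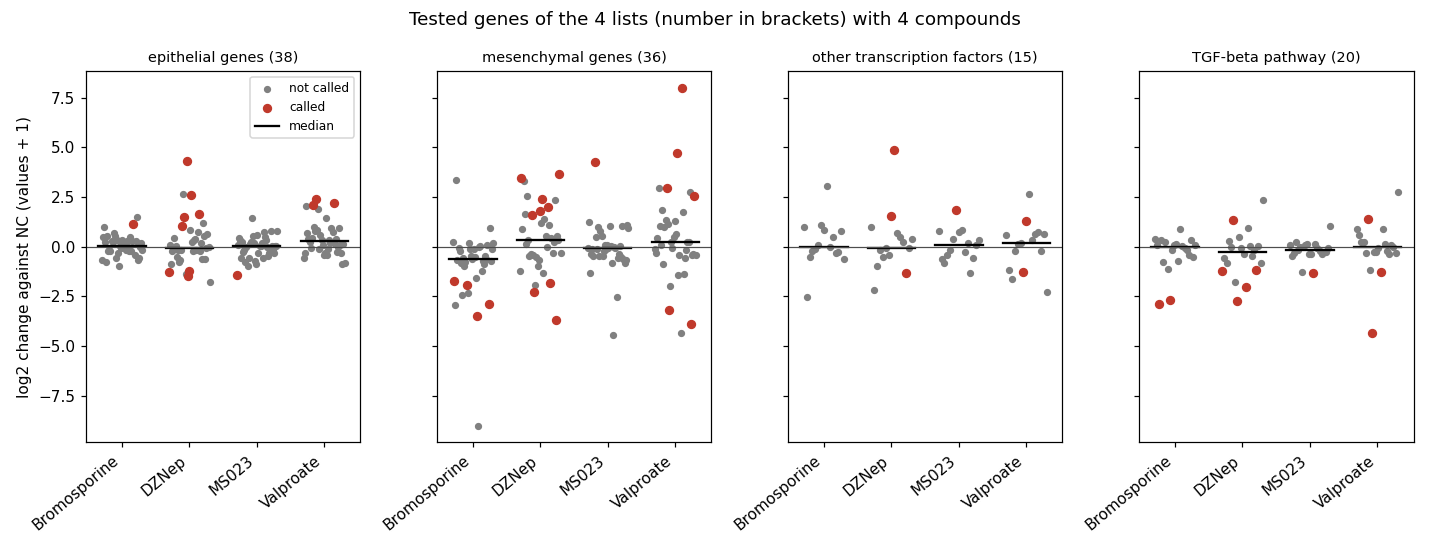
Log2 change against NC (y axis) of the tested genes of 4 lists with 4 compounds (x axis), in red where called and grey where not, with a black line at the median of the list. Epithelial genes centre near 0 with DZNep (median -0.06), and mesenchymal genes centre below 0 with Bromosporine (median -0.61).

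Col1a1, Thy1 and Lum are also on a list of 10 fibroblast or feeder cell markers, of which 9 were in the table and 8 tested. With DZNep 2 rose, with Valproate 2 rose and with Bromosporine 1 fell, beside 11.4%, 5.28% and 3.34% of all tested genes called. Their summed normalized read count was 1061 and 1981 in NC, 2755 and 3331 with DZNep, and 2288 and 2467 with Valproate. Over all groups it ran from 268 to 3331. Single genes weigh on these sums. Col3a1 was at 4 and 743 in NC, and Col5a1 at 316 and 505 in NC and 1086 and 1393 with DZNep. Neither gene was called with DZNep or Valproate in the main fit. The marker genes at 0 in both libraries numbered 2 in NC, 2 with DZNep and 1 with Valproate, and both in NC and with DZNep these were Lum and Dcn. The part of such cells in the mesenchymal counts was not tested. In bulk RNA, fewer cells of a type and less RNA per cell cannot be told apart.

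Of 20 other transcription factors linked to the transition, 17 were in the table and 15 tested. With DZNep 2 rose and 1 fell, with MS023 1 rose, with Valproate 1 rose and 1 fell, and with Bromosporine 0 were called. The shares of all tested genes called with these compounds were 11.4%, 0.973%, 5.28% and 3.34%. The named genes are Id genes, which encode inhibitors that bind helix-loop-helix factors such as Twist1 or their partners. Id2 rose from 39 and 63 in NC to 147 and 147 with DZNep (log2 change 1.55, limma adjusted p = 0.000944) and 111 and 136 with Valproate (1.29, adjusted p = 0.00702). Id3 rose with DZNep from 7 and 55 to 630 and 601 (4.86, SE 1.39, adjusted p = 0.0213). Id1 went the other way with different compounds, from 57 and 94 in NC to 335 and 213 with MS023 (1.85, adjusted p = 0.0123) and 32 and 27 with Valproate (-1.29, adjusted p = 0.0238).

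TGF-beta is the best known inducer of the transition, and all 20 listed genes of its pathway were tested. With DZNep 1 rose and 4 fell, with Valproate 1 rose and 2 fell, with Bromosporine 2 fell and with MS023 1 fell. Over all tested genes 11.4%, 5.28%, 3.34% and 0.973% were called with these compounds. The coreceptor gene Tgfbr3 rose from 175 and 196 in NC to 489 and 454 with DZNep (log2 change 1.34) and 498 and 491 with Valproate (1.41). Ltbp3, whose product holds the latent ligand in the matrix, was at 286 and 205 in NC and fell to 65 and 21 with Bromosporine, 29 and 43 with DZNep, and 13 and 9 with Valproate. The libraries of these 3 compounds are all far below NC.

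The inhibitory Smad gene Smad6 was at 414 and 334 in NC and fell to 71 and 117 with DZNep (log2 change -2.02, limma adjusted p = 0.000184), 135 and 162 with MS023 (-1.32, adjusted p = 0.0218) and 118 and 192 with Valproate (-1.30, adjusted p = 0.00753). The ligand gene Tgfb1 (109 and 151 to 55 and 55, -1.21) and Skil (1389 and 1175 to 675 and 478, -1.17), which encodes a Smad corepressor, fell with DZNep. The other 15 of the 20 genes were not called with DZNep.

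Markers of other cell states were counted beside the set. The background share called was 11.4% with DZNep, 5.28% with Valproate, 3.34% with Bromosporine, 0.973% with MS023 and 0.388% with OICR. Of 10 embryonic stem cell markers, all tested, 1 rose with DZNep and 0 were called with Valproate, Bromosporine, MS023 and OICR. That 1 was Zfp42, from 16469 and 20763 in NC to 49540 and 33822. Of 8 primitive endoderm markers tested, 2 rose and 1 fell with DZNep and 1 rose with Valproate. Pdgfra rose with both (22 and 19 in NC, 120 and 85 with DZNep, 88 and 78 with Valproate), Dab2 rose with DZNep (41 and 46 to 113 and 146) and Gata4 fell with it (156 and 154 to 35 and 61).

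Primitive streak and mesoderm cells form by a transition that needs Snail. Of 7 such markers tested, 2 rose and 1 fell with DZNep and 1 rose with Bromosporine. The other 4 of the 7 were not called with DZNep. The median log2 change of the list with DZNep was -0.19, against -0.04 over all tested genes, so the list as a whole was not higher. Only markers that rose are named here, since the marker that fell did not meet the rule for naming genes. Eomes went from 129 and 119 in NC to 356 and 199 with DZNep and 331 and 298 with Bromosporine, and Mesp2 from 36 and 30 to 118 and 83 with DZNep. Of 6 neural precursor markers tested, 2 fell with DZNep, 1 with MS023 and 1 with Valproate, and 0 were called higher with these compounds. They lowered 6.14%, 0.585% and 2.55% of all tested genes. Sox1 fell with all 3, from 742 and 514 to 225 and 204 with DZNep, 230 and 246 with MS023, and 252 and 283 with Valproate, and Nes fell with DZNep from 1555 and 1613 to 715 and 543. The part of these states in the changes of Snai1 and Vim was not tested.

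Genes with the most similar pattern were sought for the adhesion and structural genes by Pearson's r over the 22 libraries, after the mean of each replicate number was taken off, among 12864 genes. These values describe shared groups and shared normalization and were not tested. Vim was most like Catsperd (r = 0.950), Metrn (0.931) and Nsmaf (0.931). Cdh1 was most like Map3k1 (0.887), Pak2 (0.829) and Cltc (0.809), although Cdh1 itself varied little between groups. For Cdh2 the closest genes were Hist1h1c (0.886), Pim2 (0.879) and Cdc42ep4 (0.871), and for Epcam they were Cd302 (0.820), Aldh1l1 (0.808) and 9530077C05Rik (0.798). Fn1, with 3 values in all, was closest to Anapc1 (0.866), Adcy9 (0.836) and Prkaca (0.833).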

How the data were processed

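Poly(A)-enriched RNA of 22 mouse E14 libraries was analysed, grouped by their titles and treatment labels. Per the labels, the authors used Bowtie2 2.2.5 and RSEM on mm10, and the study's methods, which do not mention the compounds, name EDASeq at its full setting for normalization. The deposited unit is a score, that is, a read count that was normalized and then rounded. They share 1 distribution over libraries (median 409, largest value 221616), so levels of different genes were not compared, and the depth of each library is not known here. A second deposited table of group means was not used, and 0 columns were unmatched.

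Values were taken as log2(value + 1) and fitted in R 4.3.3 with limma 3.58.1 as 11 group means (11 residual degrees of freedom, trended eBayes, two-sided). P-values were adjusted by Benjamini-Hochberg within each contrast over 17275 genes, and called under 0.05 with a fold change over 2. DESeq2, which the authors used, needs raw counts and was not run. The fit was tested on simulated data, with normal noise around each gene's mean and changes added for DZNep. These data held no difference between replicate numbers and no shared top values, so that test does not cover either. The members and the gene lists were chosen with earlier results of these data known. From each of the 9 lists, up to 4 genes a direction were named that were called and had a group mean of at least 100, those called with most compounds first. For 1 gene so picked the values are not given here. For 5 members, the 3 most similar genes were named. Alternatives were another pseudocount (10), no filter, only 2 groups in the fit, the replicate number as a block, median-ratio rescaling, the mean of the other groups as reference, adjustment over all contrasts, and leaving out each library. Positions came from GENCODE M21 and promoters from RefSeq, read with Python 3.11.15. At most 2.64% of the 31-base stretches of a member's longest transcript occur in other genes. Plots were made with matplotlib 3.10.9.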

Additional observations from a re-analysis of the deposited data

How the results depend on the processing

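Members called with DZNep numbered 3, against 1 with adjustment over all 10 contrasts, 0 in a fit of only the DZNep and NC libraries, and 1 to 3 when a library was left out. With Valproate 1 was called, against 0 in a fit of only its own and NC libraries and 0 to 2 when a library was left out. With IOX1 0 to 1 were called when a library was left out. Fits of only 2 groups have fewer samples to estimate the spread. Zeb2 turned from lower to higher with CPTH2 (0.17) and OICR (0.13) where the mean of the other groups replaced NC as reference. NC had the highest Zeb2 mean of the 11 groups (29), and CPTH2 and OICR had a mean of 13 each. Snai1 with IOX1 ran from -3.04 to 0.54 when a library was left out. Of the member changes recomputed, 171 kept direction and side of the threshold, 15 lost the call, 9 gained it and 3 changed sign. Most of the 171 belong to changes that were not called in the main fit. All 15 losses fall on the called changes, each recomputed under 11 settings. The call was lost in 7 of them for Fn1 with DZNep and in 1 for Snai1 with DZNep. For Vim it was lost in 4 with DZNep and 3 with Valproate. Rescaling moved no median of all genes by more than 0.0358 (log2).

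The replicate numbers were checked as pairs. The differences of replicate 1 and 2 correlated between groups at 0.0535 to 0.298 (median 0.196), with 51 of 55 pairs of groups over 0.1, so that not every pair passed, and 20 of 22 libraries were most similar to a library of another group with the same number, a hint from the data and not the design. With the replicate number as a block, 1 member was called with Bromosporine (Cdh2) and 6 with DZNep (also Cdh2, Twist1 and Zeb2), and the F test over groups reached adjusted p of 0.00216 for Cdh2, 0.00458 for Epcam, 0.0439 for Fn1 and 0.00848 for Twist1. Calls over all genes went from 577 to 1189 with Bromosporine, 1970 to 2606 with DZNep and 912 to 1487 with Valproate, and the block moved 13 of the list counts by over 1.5 times. Of the 6 neural precursor markers, 1 was called higher with DZNep under the block.

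Low counts limit Snai1 and Zeb2, shared top values limit Fn1, and the unknown depth means that no counting interval can be given. Cdh1 (16 distinct values in 22 libraries) and Vim (20) also take their values from the 1 distribution shared by all libraries. Their folds are thus changes of place in it too.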
